A study of Mus musculus with 2 samples.

Results

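Hoxa9, Hoxa10, Hoxa11 and Hoxa13 are the posterior genes of the HoxA cluster, and they are described here in RNA-seq of mouse distal forelimbs at E12.5. The members were selected by gene symbol among the transcripts of the deposited table, which gave 18 transcripts of 64053 and 4 genes of 23157. They were singled out on their values in these same libraries, so that their ratios are given as a description and without a test. The wild-type library (C57Bl6CBAF1 strain) and the mutant library, HoxD Inv(TpSB1-Itga6) (the same strain by its label, homozygous embryos per the methods of the study), each came from poly(A) RNA of a pool of 3 pairs of E12.5 forelimbs, labelled distal limb. In this allele, called the inversion below, a 2.4 Mb segment of chromosome 2 is turned around, which carries distal enhancers of the HoxD cluster away from it, while the HoxA cluster lies on chromosome 6 and is not rearranged. The file column for the wild-type sample reads distal forelimb, whereas its title reads forelimb. Whether both pools were cut alike is not known, and the part of a different cut in the ratios below was not tested. Each genotype is represented by 1 library, so that the differences below have no replicate check.

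Hox genes encode homeodomain transcription factors, and the genes at the posterior (5′) end of the HoxA and HoxD clusters pattern the limb along its long axis. Genes of the same paralogue group, such as Hoxa11 and Hoxd11, descend from a common ancestral gene and share functions in the limb. Group 9 and 10 genes are needed mostly in the upper arm, group 11 genes in the forearm, and group 13 genes in the hand plate or autopod, where HOXA13 and HOXD13 together are required for digits.

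The 4 genes lie within 37.8 kb on the minus strand of chromosome 6 (GRCm38, positions from GENCODE M21 matched by Ensembl transcript identifier). Hoxa9 extends from 52223100 to 52231089, Hoxa10 from 52231197 to 52240854, Hoxa11 from 52242106 to 52245810 and Hoxa13 from 52257694 to 52260880. RefSeq promoter windows (GRCm38.p6, 250 bases before to 50 bases after a transcription start, 300 bases each) were found for all 4 genes, with 2 windows for Hoxa10. They are shown because a coding transcript of each gene starts at these positions. The 2 Hoxa10 windows belong to 2 different coding transcripts. Capitals mark matches, on either strand, to TATAAA (the TATA box), CCAAT (the CCAAT box), GGGCGG (a GC box), or to CAATAAA and TCGTAAA, 2 forms of the sequence that group 13 HOX proteins prefer. The sequences run 5′ to 3′ on the minus strand.
Hoxa9, chr6:52227321-52227620: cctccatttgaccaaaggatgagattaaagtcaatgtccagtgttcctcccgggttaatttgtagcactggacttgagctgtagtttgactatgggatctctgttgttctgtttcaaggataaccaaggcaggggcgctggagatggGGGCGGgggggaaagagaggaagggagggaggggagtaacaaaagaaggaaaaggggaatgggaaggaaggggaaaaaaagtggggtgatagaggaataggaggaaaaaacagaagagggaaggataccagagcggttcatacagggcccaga
Hoxa10 proximal start, chr6:52234890-52235189: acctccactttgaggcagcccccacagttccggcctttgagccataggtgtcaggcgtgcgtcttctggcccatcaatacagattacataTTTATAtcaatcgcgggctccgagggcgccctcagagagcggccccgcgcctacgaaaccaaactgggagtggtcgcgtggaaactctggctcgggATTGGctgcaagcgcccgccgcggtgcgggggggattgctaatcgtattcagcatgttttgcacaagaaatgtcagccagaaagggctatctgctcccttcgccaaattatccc
Hoxa10 distal start, chr6:52240805-52241104: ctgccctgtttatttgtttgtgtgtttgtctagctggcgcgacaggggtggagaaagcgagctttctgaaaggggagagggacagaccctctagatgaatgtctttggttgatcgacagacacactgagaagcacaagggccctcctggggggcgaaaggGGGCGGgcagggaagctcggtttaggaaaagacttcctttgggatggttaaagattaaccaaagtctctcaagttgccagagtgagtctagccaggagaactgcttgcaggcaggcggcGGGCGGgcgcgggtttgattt
Hoxa11, chr6:52245761-52246060: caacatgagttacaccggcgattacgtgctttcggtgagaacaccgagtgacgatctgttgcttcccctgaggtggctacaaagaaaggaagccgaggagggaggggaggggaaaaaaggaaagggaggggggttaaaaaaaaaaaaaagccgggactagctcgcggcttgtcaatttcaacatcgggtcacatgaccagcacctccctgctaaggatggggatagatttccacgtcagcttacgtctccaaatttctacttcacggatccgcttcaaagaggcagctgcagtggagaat
Hoxa13, chr6:52260831-52261130: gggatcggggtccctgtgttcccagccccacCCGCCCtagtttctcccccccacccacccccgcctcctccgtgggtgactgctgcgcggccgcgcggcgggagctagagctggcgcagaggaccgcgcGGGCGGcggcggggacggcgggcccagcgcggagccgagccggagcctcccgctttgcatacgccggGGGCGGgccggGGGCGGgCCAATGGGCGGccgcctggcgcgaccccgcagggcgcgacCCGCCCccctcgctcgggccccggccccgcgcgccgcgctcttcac

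The Hoxa13 window differed from the others in base composition. Its GC content was 81.0% with 45 CpG dinucleotides, against a median of 52.7% and 7 CpG over 32851 promoter windows of the same length, and between 49.7% (Hoxa9) and 57.3% (Hoxa10 proximal start) in the other 4. It held 6 matches to GGGCGG and 1 to CCAAT, the latter starting 36 bases before the start site and directly followed by a GC box. The GC box was also found once in the Hoxa9 window and at 2 places in the window of the distal Hoxa10 start, and 35.7% of all windows hold it. The proximal Hoxa10 window alone held a TATAAA, on the opposite strand 160 bases before the start, together with a CCAAT on the opposite strand. TATAAA occurs in 13.6% of all windows and CCAAT in 37.4%. The Hoxa11 window held no match to any of the 5 motifs. CAATAAA (4.60% of all windows) and TCGTAAA (0.597%) were not found in the 5 windows, which says only that these letters are absent there. These matches are descriptions of sequence, not binding sites.

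Each library's values were whole multiples of the value of 1 read (1.01 normalized reads in wild type, 0.988 in the inversion), and the recovered reads summed to 9280660 and 9466154. A gene's value is the sum of its transcripts in normalized reads, that is, reads after division by the library's size factor. The log2 ratio is that of inversion over wild type after adding 1 to both values. Intervals are exact 95% Clopper-Pearson intervals of counting error only, and they compare these 2 libraries rather than the genotypes. They take each recovered read as counted once. Whether a read matching several transcripts of a gene was divided or counted more than once is not given in the sources used here, and if reads were counted more than once, the intervals of gene sums, shares and pairs are too narrow.

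All 4 posterior Hoxa genes had more reads in the inversion library, with the largest ratio at Hoxa9 and the smallest at Hoxa13. Hoxa9 had 608 normalized reads for wild type and 978 for the inversion, 1.61-fold higher (log2 ratio 0.69, interval 0.54 to 0.84). Hoxa10, whose product acts with HOXA9 and HOXA11 in the proximal and middle limb, had 1154 and 1524 normalized reads, 1.32-fold higher (log2 ratio 0.40, interval 0.29 to 0.51). Hoxa11, the forearm gene, had 449 and 686 normalized reads, 1.53-fold higher (log2 ratio 0.61, interval 0.44 to 0.79). Hoxa13, the autopod gene, stood at 1098 and 1193 normalized reads, 1.09-fold higher, and the lower end of the interval of its log2 ratio (0.12, interval 0.00069 to 0.24) was next to 0. That interval includes 0 with protein-coding transcripts only (0.11, interval -0.01 to 0.24) and with the transcript of highest mean (0.05, interval -0.09 to 0.19). The median of the 4 log2 ratios was 0.51, while that of the 16756 genes averaging 10 or more normalized reads was -0.02. A ratio above 0 was found in 4 of the 4 genes and in 46.6% of all genes that passed this filter, and a ratio of at least 1.5-fold in 2 of the 4 (Hoxa9 and Hoxa11) and in 9.41% of all genes. None of the 4 reached a 2-fold ratio, which 3.99% of all genes did. In whole-tissue libraries such as these, more cells of a type and more RNA per cell cannot be told apart.

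**Figure D1:**
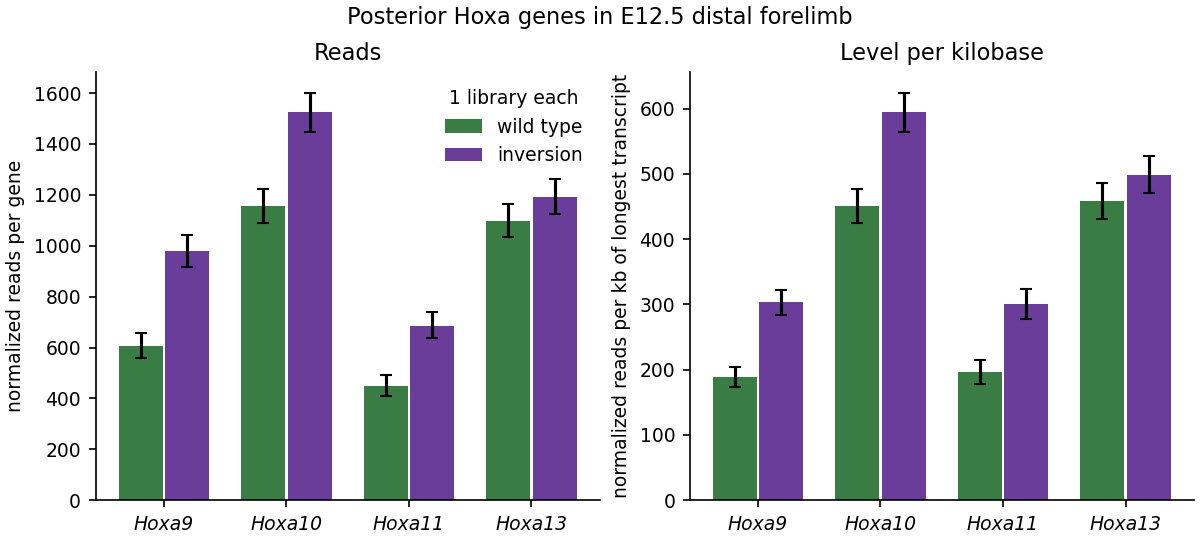
Normalized reads per gene (left axis, normalized reads) and per kilobase of the longest annotated transcript (right axis, normalized reads per kb) for the 4 posterior Hoxa genes, with 1 bar per library (green wild type, purple inversion) and exact 95% Poisson counting intervals. Hoxa9 goes from 608 to 978 normalized reads and Hoxa11 from 449 to 686, while the intervals of Hoxa13 overlap between the libraries.

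Among the 16756 genes averaging 10 or more normalized reads, 7.62% had a higher log2 ratio than Hoxa9. That share was 8.78% for Hoxa11, 13.8% for Hoxa10 and 29.8% for Hoxa13. Genes with few reads spread more widely, and among the 11831 genes averaging 100 or more normalized reads the shares were 2.90% for Hoxa9, 3.57% for Hoxa11, 7.15% for Hoxa10 and 23.0% for Hoxa13. Hoxa13 thus lay within the range of most well-covered genes. Among genes of similar mean, the other 3 lay above the 95th percentile.

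**Figure D2:**
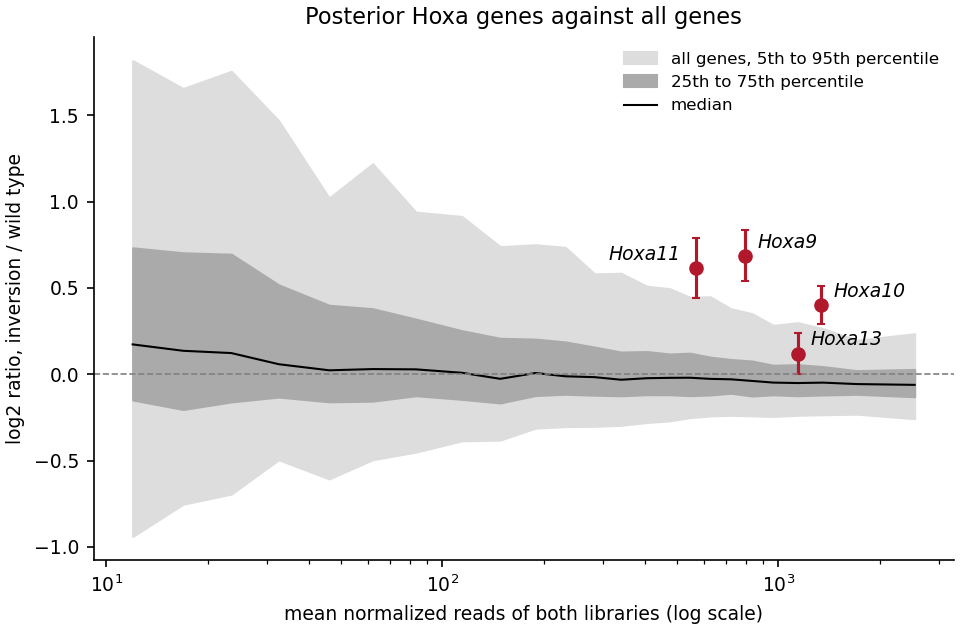
Log2 ratio of inversion over wild type (vertical axis) against the mean normalized reads of both libraries (horizontal axis, log scale), with bands for the percentiles of all genes in 24 bins of mean and the 4 posterior Hoxa genes as red points with 95% counting intervals. Hoxa9 (0.69), Hoxa11 (0.61) and Hoxa10 (0.40) lie above the band from the 5th to the 95th percentile, and Hoxa13 (0.12) lies within it.

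The ratios of the 4 genes differed among themselves. In these 2 libraries the log2 ratio of Hoxa13 was below that of Hoxa9 by 0.57 (exact conditional interval 0.38 to 0.76), below that of Hoxa11 by 0.49 (0.28 to 0.71) and below that of Hoxa10 by 0.28 (0.12 to 0.44). Hoxa9 was also above Hoxa10 by 0.29 (0.10 to 0.47). Hoxa9 and Hoxa11 did not differ beyond counting error (0.07, interval -0.16 to 0.30), and the difference of Hoxa10 minus Hoxa11 was -0.21 with an interval of -0.42 to -0.0053 that came close to 0. Along the cluster the point values therefore did not decline steadily from Hoxa9 to Hoxa13, since Hoxa11 lay above Hoxa10. The intervals of the 6 pairs were not corrected for their number.

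The make-up of the 4 genes' reads differed accordingly. Hoxa13 held 33.2% of the 3267 reads of the 4 genes in wild type and 27.2% of the 4436 reads in the inversion, a difference of -5.95 percentage points (interval -8.05 to -3.85). Hoxa9 held 18.4% and 22.3%, a difference of 3.95 points (2.12 to 5.77). Hoxa11 held 13.6% and 15.7%, 2.11 points apart (0.49 to 3.71), and Hoxa10 held 34.9% and 34.8% (difference -0.11, interval -2.29 to 2.06). These shares depended on the transcripts counted. With the transcript of highest mean for each gene, Hoxa9 held 20.2% and 27.0% (6.79 points more) and Hoxa13 44.2% and 35.5%. Hoxa10 then held 21.2% and 20.7%, a smaller share of the reads than Hoxa13 in both libraries. With protein-coding transcripts only, Hoxa10 (27.0% and 26.1%) likewise held a smaller share than Hoxa13 (41.4% and 34.6%). The difference of Hoxa9 was then 5.89 points. Per kilobase of the longest transcript, Hoxa10 held 34.81% and 35.04% and Hoxa13 35.45% and 29.38%.

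Levels can be compared between genes only per length. Per kilobase of the longest annotated transcript (3226 nt for Hoxa9, 2565 nt for Hoxa10, 2287 nt for Hoxa11 and 2395 nt for Hoxa13), the wild-type levels were 458 normalized reads per kb for Hoxa13, 450 for Hoxa10, 196 for Hoxa11 and 188 for Hoxa9. Hoxa13 (431 to 486) and Hoxa10 (424 to 477) did not differ beyond counting error, nor did Hoxa11 (178 to 215) and Hoxa9 (174 to 204). In the inversion library Hoxa10 was first with 594 (565 to 624), followed by Hoxa13 with 498 (470 to 527), and Hoxa9 (303, interval 284 to 323) and Hoxa11 (300, interval 278 to 323) could not be ordered. Each transcript's reads can also be divided by its own length and summed, which leaves out the 2 Hoxa10 transcripts without a length here. Hoxa10 was then first (636 in wild type and 767 in the inversion), before Hoxa13 (610 and 688), Hoxa9 (428 and 641) and Hoxa11 (203 and 311).

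The transcripts of each gene were then examined one by one. Of the 18 transcripts, 17 had a mean of at least 10 normalized reads, and 17 of these 17 had a log2 ratio above 0, against 49.7% of the 45239 transcripts that passed the same filter. A ratio of at least 1.5-fold was found in 4 of the 17 (13.3% of all transcripts) and one of at least 2-fold in 1 of the 17 (6.66% of all transcripts). The transcript left out by the filter, ENSMUST00000000962 of Hoxa10, was counted with 0 reads for wild type and 2 for the inversion, too few to compare. Transcripts of a gene share exons and are not independent measurements.

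In Hoxa9 the main coding transcript, ENSMUST00000048680, which starts at the promoter shown above, carried most reads. It had 392 normalized reads for wild type and 674 for the inversion (log2 ratio 0.78, interval 0.60 to 0.97), and it made up 64.5% and 68.9% of the gene's reads. The shorter coding transcript ENSMUST00000114425 had 93.2 and 138 normalized reads (0.56). The processed transcripts ENSMUST00000154641 and ENSMUST00000156540, which reach toward Hoxa10, had log2 ratios of 0.38 and 0.63 with intervals that include 0. Against the rest of its gene, the main transcript was higher by 0.29 on the log2 scale with an interval of -0.03 to 0.60.

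A further transcript in Hoxa9 is not a member by its symbol. ENSMUST00000174115 is listed as RP23-329P9.11 in the deposited table, while GENCODE M21 places it in Hoxa9 as a retained intron from 52228247 to 52230532. It had 104 normalized reads for wild type and 314 for the inversion, 3.01-fold higher (log2 ratio 1.58, interval 1.27 to 1.93). Retained-intron transcripts as a class were higher in the inversion library, with a median log2 ratio of 0.20 over 7715 transcripts, of which 13.6% were at least 2-fold higher, against -0.03 and 4.14% for 23662 protein-coding transcripts. The part of this class difference in the value of ENSMUST00000174115 was not tested. Counting it within Hoxa9 raises that gene's log2 ratio from 0.69 to 0.86.

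This retained intron contains the hairpin of Mir196b (52230081 to 52230165), a microRNA gene of the cluster whose family is known to act on Hox mRNAs. Its mature sequence is shown with that of miR-196a from the HoxB and HoxC clusters, with the seed (bases 2 to 8) in capitals.
mmu-miR-196b-5p, chr6:52230129-52230150, minus strand: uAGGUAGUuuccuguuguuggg
mmu-miR-196a-5p, chr11:96265187-96265208 and chr15:102973365-102973386, plus strand: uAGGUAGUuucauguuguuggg
Both RefSeq sequences have 22 bases and the same seed, and differ by C12A, with positions counted from the 5′ end of miR-196b. The Mir196b row itself held 1 wild-type read and 2 inversion reads, which does not allow a comparison, and poly(A) libraries do not measure mature microRNAs.

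The 2 Hoxa10 starts with a promoter window lie 5.92 kb apart. The coding transcript from the proximal start, ENSMUST00000125581, had 411 and 517 normalized reads (log2 ratio 0.33, interval 0.14 to 0.52). The coding transcript from the distal start, ENSMUST00000121043, had 242 and 300 (0.31, interval 0.06 to 0.56). The intervals of these 2 transcripts thus overlap over most of their length. However, the transcripts also overlap on the chromosome, and how reads matching both were assigned is not known. The values therefore cannot compare the 2 starts. The processed transcripts ENSMUST00000126402 (0.20) and ENSMUST00000142611 (0.22) were in the same range, with intervals that include 0.

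The sixth transcript of Hoxa10 departed from the others. ENSMUST00000138481, which has no entry in GENCODE M21 and hence no type or length here, had 64.8 normalized reads for wild type and 199 for the inversion, 3.08-fold higher (log2 ratio 1.61, interval 1.21 to 2.05). It made up 5.61% of the gene's reads in wild type but 13.1% in the inversion, and its log2 ratio lay 1.34 above that of the rest of Hoxa10 (0.91 to 1.79). Without the 2 transcripts that have no entry, the log2 ratio of Hoxa10 was 0.28 instead of 0.40.

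**Figure D3:**
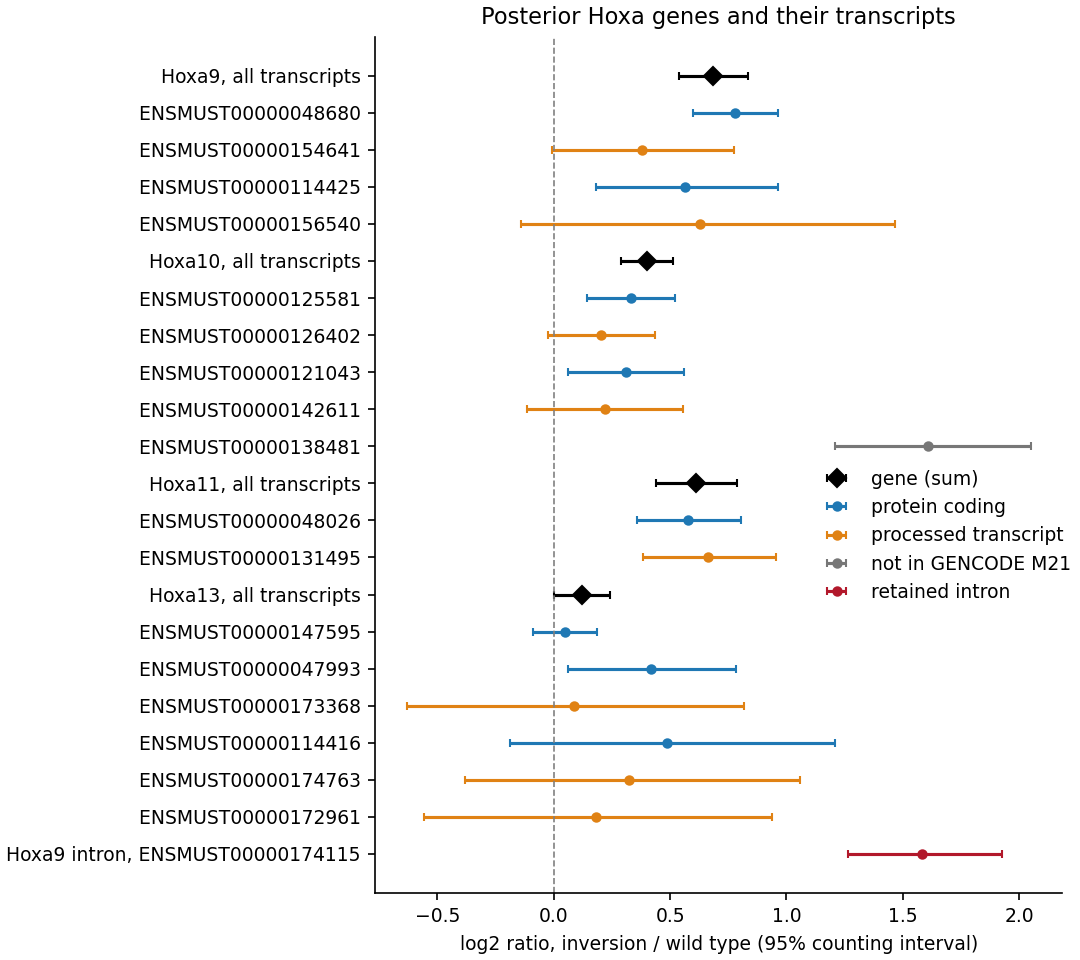
Log2 ratio of inversion over wild type (horizontal axis) with exact 95% counting intervals for each posterior Hoxa gene (black diamonds), for its transcripts with reads in both libraries (circles, coloured by GENCODE M21 type) and for the retained-intron transcript of Hoxa9. The other 16 transcripts lie from 0.05 to 0.78, whereas ENSMUST00000138481 of Hoxa10 (1.61) and ENSMUST00000174115 in Hoxa9 (1.58) lie apart.

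Both transcripts of Hoxa11 showed about the same difference. The coding transcript ENSMUST00000048026 had 279 and 418 normalized reads (log2 ratio 0.58, interval 0.36 to 0.80), and the processed transcript ENSMUST00000131495 had 169 and 269 (0.66, interval 0.38 to 0.95). Hoxa11os, listed as Hoxa11as, is transcribed from the plus strand and is known to be expressed in the autopod, away from Hoxa11. It had 1019 normalized reads for wild type and 1385 for the inversion (log2 ratio 0.44, interval 0.32 to 0.56). Its 2 transcripts that overlap Hoxa11 had a joint log2 ratio of 0.47 and the 4 without overlap one of 0.43. Of its 6 transcripts, 5 are of the antisense type, a class that was higher overall in the inversion library (median log2 ratio 0.33 over 327 transcripts, 16.5% of them at least 2-fold higher), and the part of this class difference was not tested. The libraries were stranded, but whether strand was used in assigning reads is not given in the sources used here, and reads of the overlap may be shared between the partners.

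In Hoxa13 the main coding transcript ENSMUST00000147595 hardly differed, with 857 normalized reads for wild type and 886 for the inversion (log2 ratio 0.05, interval -0.09 to 0.19). The coding transcript ENSMUST00000047993, which starts at the promoter shown above, had 114 and 153 normalized reads (0.42, interval 0.06 to 0.78). The remaining 4 transcripts, each with 30 to 45 reads in a library, ranged from 0.09 to 0.49, and each interval includes 0. The rest of the gene lay above ENSMUST00000147595, whose difference from it was -0.30 (-0.59 to -0.02), an interval that came close to 0. Such differences were computed for each member transcript with wild-type reads and were not corrected for their number. They also depend on how reads of shared exons were assigned, which is not known.

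Next, the 4 genes were placed within their cluster. The 6 anterior genes Hoxa2 to Hoxa7 were also above 0, with a median log2 ratio of 0.68 and a range from 0.40 (Hoxa7) to 1.03 (Hoxa6, 110 and 227 normalized reads). Summed and without correction for length, they had 560.0 and 936 normalized reads (log2 ratio 0.74, interval 0.59 to 0.90). The 4 posterior genes had 3308 and 4381 (0.41, interval 0.34 to 0.47). Beyond Hoxa13, the noncoding gene Hottip, known to activate the posterior genes and listed as Gm15053, had 512 and 704 normalized reads (0.46, interval 0.29 to 0.63). Evx1, the even-skipped homologue at the end of the cluster, had 140 and 282 (1.01), and its partner Evx1os, listed as 5730457N03Rik, 200.5 and 402 (interval of the log2 ratio 0.75 to 1.26). At the anterior end the noncoding genes Hotairm1 (listed as Gm15051, 17 and 18 reads) and Hoxaas3 (2700086A05Rik, 10 and 29 reads) had few reads. Hoxa13 thus had a smaller ratio than the genes on either side of it. Of the list of noncoding genes and neighbours, 11 passed the filter, 6 above and 5 below 0.

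The genes flanking the cluster had ratios below 0. Hibadh had a log2 ratio of -0.08, Jazf1 one of -0.01, Skap2 one of -0.30 and Snx10 one of -0.26, and each of these intervals includes 0. Tax1bp1 had 1949 and 1649 normalized reads (-0.24, interval -0.34 to -0.15).

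**Figure D4:**
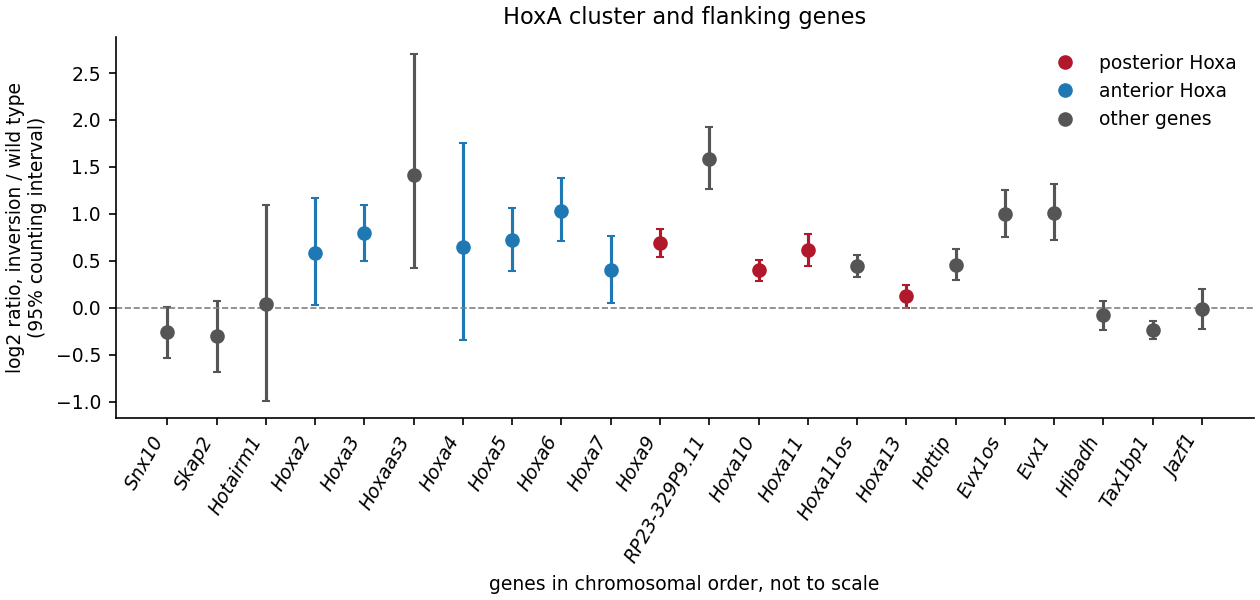
Log2 ratio of inversion over wild type (vertical axis) with exact 95% counting intervals for genes of the HoxA region averaging 10 or more normalized reads, in chromosomal order and not to scale (red posterior Hoxa, blue anterior Hoxa, grey other genes). Hoxa13 (0.12) is low between Hoxa11 (0.61) and Evx1 (1.01), and the flanking genes Snx10, Skap2, Hibadh, Tax1bp1 and Jazf1 lie from -0.30 to -0.01.

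The posterior Hoxa genes were then compared with their paralogues in the HoxD cluster, which the inversion separates from part of its enhancers. Hoxd9 was the partner with the same difference, at 259 and 421 normalized reads (log2 ratio 0.70). Hoxd10 had 784 and 730 (-0.10), Hoxd11 1221 and 957 (-0.35) and Hoxd13 2292 and 1503 normalized reads (-0.61). The log2 ratio of the Hoxa gene exceeded that of its partner by 0.97 in group 11 (interval 0.75 to 1.18), by 0.73 in group 13 (0.58 to 0.88) and by 0.50 in group 10 (0.32 to 0.69). In group 9 the difference was -0.01 (-0.29 to 0.26).

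The summed reads of the pairs therefore differed in different directions. For group 11 the higher Hoxa11 and the lower Hoxd11 offset each other, with 1670 normalized reads of both genes in wild type and 1643 in the inversion (log2 ratio -0.02, interval -0.12 to 0.08). For group 13, where Hoxa13 differed little, the sum was 3390 in wild type and 2696 in the inversion (-0.33, interval -0.40 to -0.26). For group 10 it was 1938 and 2254 (0.22, interval 0.13 to 0.31) and for group 9 it was 867 and 1398 (0.69, interval 0.57 to 0.81). The sums of groups 10 and 11 depended on the transcripts counted, since with protein-coding transcripts only their log2 ratios were 0.11 and 0.082, and with the transcript of highest mean they were 0.062 and 0.10, where both counting intervals (-0.05 to 0.18 and -0.05 to 0.25) include 0. Adding the HoxB and HoxC paralogues found in the table moved these sums little, to log2 ratios of 0.71, 0.20, -0.02 and -0.31 for groups 9, 10, 11 and 13.

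Accordingly, Hoxa11 supplied 26.9% of the reads of its pair in wild type and 41.8% in the inversion, 14.9 percentage points more (interval 11.7 to 18.1). Hoxa13 supplied 32.4% and 44.2%, 11.9 points more (9.40 to 14.3), and Hoxa10 59.6% and 67.6%, 8.06 points more (5.10 to 11). For Hoxa9 the share was 70.1% and 69.9% (difference -0.18, interval -4.10 to 3.8). Per kilobase of the longest transcript these shares were 35.1% and 51.4% for Hoxa11, 33.2% and 45.1% for Hoxa13, 51.0% and 59.6% for Hoxa10 and 60.8% and 60.6% for Hoxa9. The level of a share depended on the transcripts counted. With protein-coding transcripts only, Hoxa10 supplied 45.5% and 52.8% and Hoxa11 42.1% and 59.5%, and with the transcript of highest mean Hoxa10 supplied 34.4% and 41.5%.

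**Figure D5:**
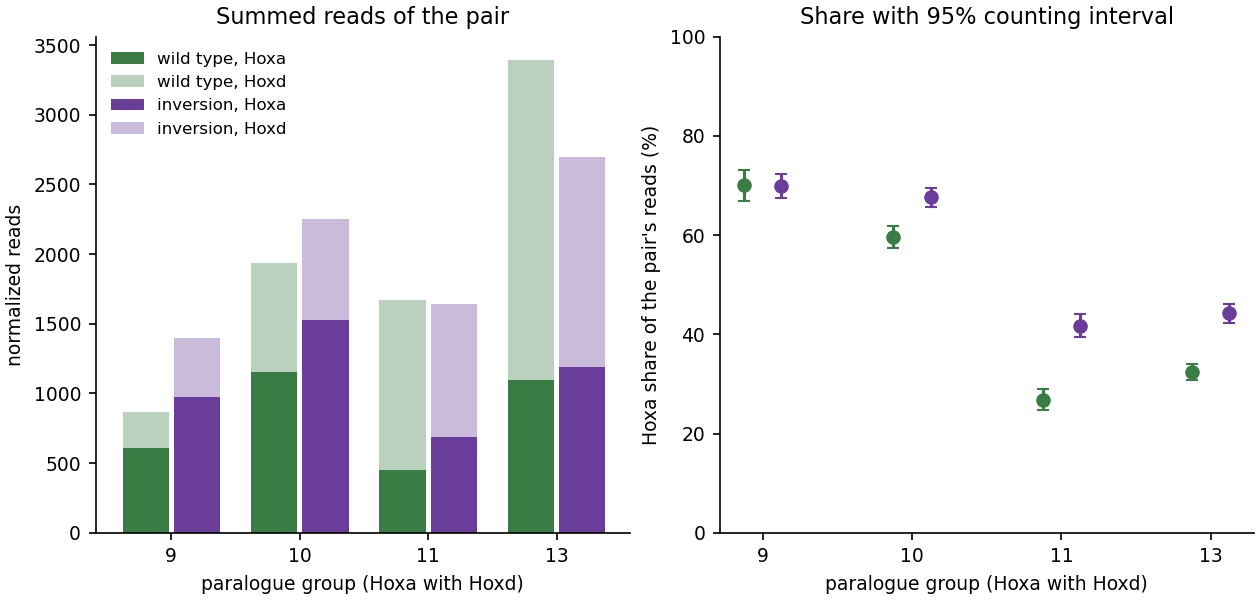
Left, normalized reads of each Hoxa gene (full colour) stacked with its Hoxd paralogue (pale) in wild type (green) and inversion (purple), by paralogue group. Right, the Hoxa share of the pair's reads in percent with exact 95% intervals (same colours), which is 26.9% and 41.8% for group 11 and 70.1% and 69.9% for group 9.

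Among the paralogues of the other clusters, Hoxb9 had 36.5 normalized reads for wild type and 110 for the inversion (log2 ratio 1.56, interval 1.03 to 2.17). The counting intervals of the 5 HoxC genes differ in width, the narrowest being that of Hoxc13 (-0.26 to 0.34). Hoxc9 (-0.67), Hoxc10 (-0.47), Hoxc11 (0.01), Hoxc12 (-0.35) and Hoxc13 (0.04) had intervals that include 0 and between 19 and 192 reads in a library. Hoxd12, which has no HoxA partner, had 1636 and 901 normalized reads (-0.86). Of the 11 paralogues that passed the filter, 4 were above and 7 below 0, with a median of -0.35.

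The proteins with which HOX factors bind DNA, encoded by the TALE genes (Pbx, Meis and Pknox families), gave no common direction. Of 9 genes, 3 were above and 6 below 0, with a median log2 ratio of -0.09, from -0.34 for Meis2 (521 and 412 normalized reads) to 0.60 for Pbx4 (37.5 and 57.3). Of 8 other limb bud regulators that passed the filter, 4 were above and 4 below 0 (median 0.02). Among these, Gli3, the repressor of the Sonic hedgehog pathway, had 3554 and 2938 normalized reads (-0.27), and the growth factor gene Fgf10 had 710 and 592 (-0.26). On the other side, the homeobox gene Alx4 had 366 and 450.3 (0.30, interval 0.10 to 0.50) and Hand2, which acts in the posterior limb bud, had 833 and 910 (0.13).

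Genes known to depend on the encoded proteins were read from short lists. The 3 genes linked to HOXA13 were all below 0, namely the signalling molecules Bmp2 (725 and 554 normalized reads, log2 ratio -0.39) and Bmp7 (1275 and 1016, -0.33) and the Eph receptor gene Epha7 (950 and 805, -0.24). The 2 genes linked to the group 11 proteins were above 0. Shox2, which shapes the proximal long bones, had 381 and 715 normalized reads (0.91), and Runx2, the regulator of bone formation, had 266 and 502 (0.91). These lists hold 3 and 2 genes only, and 46.6% of all genes that passed the filter were above 0. Shox2 is also in the proximal limb list below. The part of the Hoxa genes in these values was not tested.

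For each member the 3 other genes with the most similar normalized reads in both libraries were looked up by Euclidean distance on the log2 scale, among genes averaging 100 or more. With 2 libraries this likeness means only a similar level and ratio. The genes were Col16a1, Ppp1r9a and Prpf40b for Hoxa9, Lama5, Safb2 and Itga6 for Hoxa10, Rpl13a, Eif2c3 and Mdm4-ps for Hoxa11, and 2510006D16Rik, Vps39 and Zcchc24 for Hoxa13. The nearest of these, Col16a1, had 605 and 979 normalized reads at a distance of 0.0074 from Hoxa9. Itga6, a gene at a breakpoint of the inversion, had 1211 and 1490 normalized reads.

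The pools also differed in other markers. The defining genes of forelimb mesenchyme were abundant in both libraries, with Prrx1 at 3906 and 3864 normalized reads and Tbx5, the forelimb gene, at 1684 and 1935. Of the 8 genes of that list 2 were above and 6 below 0 (median -0.04), from Lhx2 at -0.43 and Msx1 at -0.22 to Tbx5 at 0.20. Of the hindlimb genes, Pitx1 had 44.6 and 28.6 normalized reads and Tbx4 435 and 389. The proximal limb list of 5 genes had 1 gene above and 4 below 0 (median -0.29, summed level 1389 and 1528 normalized reads). The higher sum came from Shox2, and without it the other 4 genes summed to 1009 and 813 normalized reads. Of 8 muscle markers 7 were above 0 (median 0.73, summed level 1031 and 2166 normalized reads), among them Myh3 with 189 and 715 reads. Of 7 cartilage markers 4 were above 0 (median 0.07, summed level 12772 and 14741), from Hapln1 at -0.28 to Matn1 at 1.68, with Sox9 at -0.09. The distal limb list, which includes Hoxa13 and Hoxd13, had 4 genes above and 2 below 0 (median 0.19). Leukocyte and Schwann cell markers, 3 genes each, had medians of 0.17 and 0.31. The 6 ectoderm, 4 endothelium and 4 red cell markers were all below 0 (medians -0.23, -0.10 and -0.24). Of 4 neural tube markers only 2 had an entry (Olig2 and Elavl3), with at most 4 reads per gene and library. Markers of embryo sex differed as well, with 2607 Xist reads for wild type against 13 for the inversion, and the summed reads of 4 Y-linked genes differed 3.33-fold in the other direction. The part of these differences in the values of the posterior Hoxa genes was not tested, and with 1 pool each, sex and tissue make-up cannot be told apart from genotype.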

How the data were processed

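RNA of the 2 pools was sequenced from stranded poly(A) libraries (single-end reads of 100 bases). The authors mapped the reads to NCBIM37 (the submitters' processing notes name Bowtie2 and mm9) and assigned them to transcripts. The authors deposited 1 table with a signal per transcript and library, that is, reads divided by a size factor, with 0.5 for no reads. Its fold change, log2 and p-value columns, which hold the authors' comparison, were not used, and 0 per-sample columns were left unmapped. The paper gives RPKM, but the values do not depend on length. Above 0.5, 100% of the values were whole multiples of 1 read (tolerance 0.1 read). Transcripts were summed by symbol and chromosome, and log2 ratios used a pseudocount of 1 and genes averaging 10 or more normalized reads. On this scale the change of low genes is understated. An exact binomial test of the recovered reads against equal normalized values, which compares the libraries and not the genotypes, called 2068 genes higher and 1318 lower (Benjamini-Hochberg, 0.05). Intervals of a difference in log2 ratio are exact conditional ones, and those of a difference in shares join both exact intervals by Newcombe's method. Types, lengths and positions come from GENCODE M21 (GRCm38, whereas mapping used NCBIM37), matched by identifier for 88.1% of transcripts, without converting coordinates. Members and gene lists were chosen with earlier results of these data known. The genes named are the members with all transcripts, the genes of the HoxA region and paralogues, up to 4 of each other list, and the 3 nearest genes of each member. In the region, 1 gene is not reported here. Alternatives were 2 other scalings, pseudocounts of 5 and 0.1, filters, folds, the highest transcript, protein-coding transcripts only and shares per kilobase. The steps were tested on simulated libraries. Software was scipy 1.17.1, pandas 2.3.3, numpy 2.4.6 and matplotlib 3.10.9 under Python 3.11.15.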

Additional observations from a re-analysis of the deposited data

How the results depend on the processing

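No paired analysis was possible because each genotype has 1 library, for which reason none can be left out. The log2 ratios stayed above 0 under each alternative run for them. They ranged from 0.67 to 0.86 for Hoxa9, from 0.28 to 0.41 for Hoxa10, from 0.58 to 0.62 for Hoxa11 and from 0.05 to 0.13 for Hoxa13, and the median of the 4 from 0.45 to 0.51. The counting interval of Hoxa13 includes 0 with protein-coding transcripts only and with the transcript of highest mean. Scaling by the total or the upper quartile moved the median of all genes by 0.0075 and -0.0179 and so tests little. Chosen after seeing the data, Hoxa10 without the transcripts outside GENCODE M21 was at 0.28 and Hoxa9 with the retained intron at 0.86. In the reads of the 4 genes, the difference in the share of Hoxa9 was 6.79 percentage points with the transcript of highest mean and 5.89 with protein-coding transcripts only (3.95 in the report), and that of Hoxa13 was -8.67 with the transcript of highest mean. Of the 4 Hoxa shares in a paralogue pair, 3 were larger in the inversion, and 4 with the transcript of highest mean or protein-coding transcripts only, where Hoxa9 joined them. Chosen after seeing the data as well, the log2 ratio of the summed pair was 0.062 for group 10 and 0.10 for group 11 with the transcript of highest mean, and 0.11 and 0.082 with protein-coding transcripts only (0.22 and -0.02 in the report). At 2-fold, 668 genes were higher and 81 lower. Without the filter these were 1992 and 1089, with a mean of at least 100 they were 139 and 12, at 1.5-fold 1577 and 341, at 4-fold 113 and 13, and by the exact binomial test 2068 and 1318. With protein-coding transcripts only, 412 were higher, and higher genes then made up 78.9% of those past 2-fold instead of 89.2% (64.7% without the filter). Other than through the genes or transcripts a setting removes, the cause was not tested. Counting error is wide for the 4 shortest Hoxa13 transcripts, with 30 to 33 reads in wild type and lower bounds of the log2 ratio from -0.63 to -0.19.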
